A study of Arabidopsis thaliana with 4 samples.

Results

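In mature Arabidopsis rosette leaf, chromatin immunoprecipitation sequencing gave 17330 nuclear regions for acetylated histone H3 (H3ac) and 17128 for histone H3 trimethylated at lysine 4 (H3K4me3). These 34458 regions are the nuclear regions of the deposited H3ac and H3K4me3 tables for which the leaf library is named as a source, out of 20264 and 18564 regions after merging leaf with callus. The study profiled both marks in rosette leaf and in callus of the Col-0 ecotype, with no treatment of the plants and 1 library per mark and tissue. Callus was grown for 15 days on callus-inducing medium (CIM) from leaf pieces of 2-week-old seedlings, and the leaves were the parental ones. Neither the number of plants pooled nor the lysines that the H3ac antibody reads is stated in the labels. With 1 library each, no value below has a replicate check, and no test between the marks was possible.

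H3 acetylation and H3K4me3 are marks of nucleosomes near the start of transcribed plant genes. Acetyl groups are added and removed by acetyltransferases and deacetylases and loosen the contact of the histone with DNA. H3K4me3 is written by methyltransferases of the trithorax class and accompanies transcription. The comparison within leaf asks where these marks lie together, where only 1 of them was called, and whether gene groups differ in the balance of the marks.

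H3ac regions covered 15.3 Mb, with a median width of 804 bp and quartiles of 605 and 1062 bp. H3K4me3 regions covered 19.5 Mb, with a median width of 1045 bp and quartiles of 875 and 1326 bp. Leaf and callus calls were merged before deposition, so that 1643 H3ac regions (9.48%) and 882 H3K4me3 regions (5.15%) were called in leaf alone, and each of the others carries 1 extent and 1 score for both tissues. Regions called in leaf alone were narrow and weak, with median widths of 232 bp for H3ac and 467 bp for H3K4me3 and median scores of 56.0 and 94.8, against 274.2 and 467.0 over all leaf regions. A score is the number that the authors' peak caller gave a region, without a unit. It ranks regions within 1 mark, and scores of the marks are compared below only as ranks. Scores of regions called in leaf alone came in steps of 1.4 for H3ac and 0.511 for H3K4me3, a ratio of 2.74. If a step is 1 read and both scores are scaled to the same total, the H3K4me3 library held 2.74 times as many reads as the H3ac library. The part of this depth difference in the calls of single marks was not tested.

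Genes of known cell types were read beside all protein-coding genes, of which 64.1% carried both marks and 28.2% neither. Of 7 leaf mesophyll genes, 5 carried both marks, among them RCA (Rubisco activase, H3ac score 363.4 and H3K4me3 score 986.3) and GLK1 (a regulator of chloroplast development, H3ac score 661.0 and H3K4me3 score 742.6), and LHCB1.1 and LHCB2.1 carried H3K4me3 alone. In callus RCA, GLK1 and LHCA1 carried both marks too, RBCS1A and CA1 H3ac only, LHCB2.1 H3K4me3 only and LHCB1.1 neither. None of 5 flower identity genes, 3 pollen genes and 4 shoot meristem genes carried either mark in leaf. Of these, only PI and HAP2 carried a mark in callus. The marker genes thus tell leaf from callus only in part. Wider lists did hold genes marked in leaf. Of 35 flower and meristem identity genes 13 carried both marks and 2 H3K4me3 only. Of 8 pollen and gamete genes 1 carried both and 4 H3K4me3 only. Of 6 seed genes, the storage protein gene CRA1 lay within 500 bp of an H3K4me3 region (score 206.4). Of 6 root genes, WOX5 carried both marks (scores 294.2 and 438.5), in regions centred outside its body. Cell types that make up little of a leaf were covered unevenly. The trichome regulators GL2 and GL3, the xylem regulator VND7 and the guard cell channel gene KAT1 carried both marks. The regions counted for VND7 were centred outside its body. Neither mark was found at the trichome regulator GL1, the xylem genes XCP1 and XCP2 and the guard cell regulators MYB60 and FAMA. The phloem regulator APL and the sucrose exporters SWEET11 and SWEET12 also carried neither. The phloem gene SUC2 had H3K4me3 only (score 695.5), with its strongest region centred outside its body. In bulk leaf, fewer cells with a mark and less of the mark per cell cannot be told apart.

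Most regions of each mark lay on a region of the other. By at least 1 bp, 15603 of 17330 H3ac regions (90.0%) overlapped an H3K4me3 region, and 15173 of 17128 H3K4me3 regions (88.6%) overlapped an H3ac region. The share depended on the strength of the region. In the lowest decile of scores 47.7% of H3ac and 44.1% of H3K4me3 regions overlapped the other mark, in the fourth decile 94.7% and 94.2%, and in the top decile 99.6% and 99.9%. Width went the same way, with 43.2% of H3ac and 32.3% of H3K4me3 regions of up to 300 bp overlapping, against 96.7% and 97.4% of those above 1500 bp. Of regions called in leaf alone, 50.3% for H3ac and 51.0% for H3K4me3 overlapped a leaf region of the other mark.

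**Figure D1:**
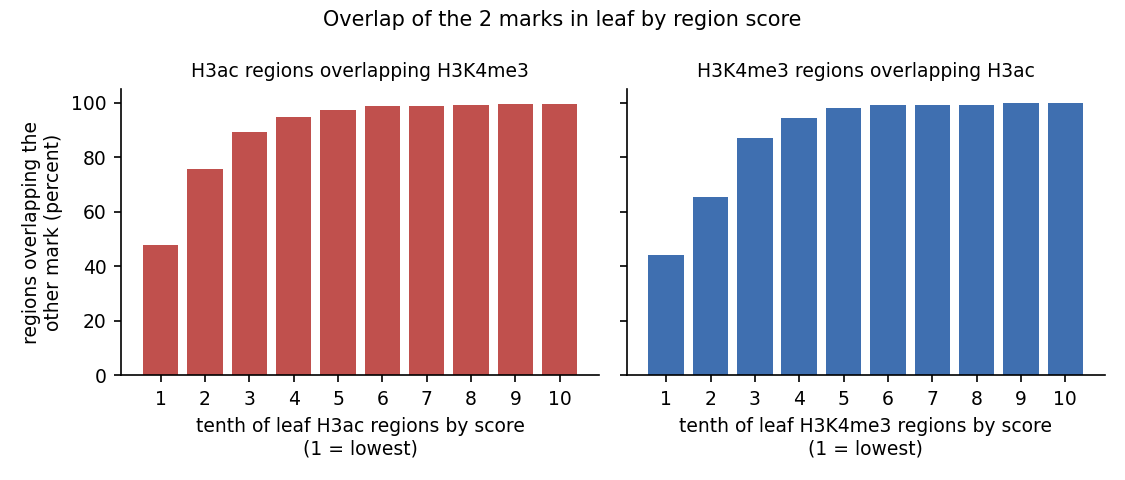
Share of leaf regions that overlap a leaf region of the other mark by at least 1 bp (vertical axis, percent), by score decile within each mark (horizontal axis, weakest to strongest), with H3ac regions in red on the left and H3K4me3 regions in blue on the right. The bars are lowest in the first decile (47.7% for H3ac, 44.1% for H3K4me3) and reach 94.7% and 94.2% in the fourth.

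The H3ac region was as a rule the shorter one and lay inside the H3K4me3 region. The shared stretches came to 13.6 Mb, which is 88.9% of the H3ac length and 69.8% of the H3K4me3 length. Among 14501 pairs in which 1 region of each mark overlapped no further region, H3ac was the narrower in 12106 (83.5%), with median widths of 840 bp for H3ac and 1064 bp for H3K4me3 and a median width ratio of 0.796. In 10151 pairs (70.0%) the H3ac region lay wholly inside the H3K4me3 region, and in 1113 pairs (7.68%) the H3K4me3 region lay wholly inside the H3ac region. Their centres were a median of 69 bp apart, with quartiles of 32 and 129 bp, and 65.3% were within 100 bp. The extents of most pairs include callus calls. In the 250 pairs called for both marks in leaf alone the median width ratio was 0.634, H3ac was the narrower in 73.6%, and the centres were a median of 93.5 bp apart. H3K4me3 regions that spanned at least 2 H3ac regions outnumbered the reverse, of which there were 85.

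Regions without the other mark differed between the marks in where they lay. Of the 1727 H3ac regions that overlapped no leaf H3K4me3 region, 845 (48.9%) touched the body of a protein-coding gene, 322 lay within 500 bp of one and 560 (32.4%) lay farther away. Of the 1955 H3K4me3 regions that overlapped no leaf H3ac region, 1828 (93.5%) touched a gene body, 34 lay within 500 bp and 93 (4.76%) lay farther away. Among regions that overlapped the other mark, 97.0% for H3ac and 97.2% for H3K4me3 touched a gene body. Both unmatched sets were weaker and narrower than the matched ones, with median scores of 72.8 against 296.7 and widths of 352 against 833 bp for H3ac, and 140.9 against 497.5 and 689 against 1075 bp for H3K4me3. Of the unmatched regions, 817 for H3ac (47.3%) and 432 for H3K4me3 (22.1%) had been called in leaf alone. A callus region of the other mark lay on 146 unmatched H3ac regions (8.45%) and on 600 unmatched H3K4me3 regions (30.7%).

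A few of the H3ac regions far from protein-coding genes were as strong as those at genes. The strongest, chr3:8183093-8187765 in TAIR10, spanned 4673 bp, had a score of 932.0, which is above 97.6% of leaf H3ac regions, and lay 998 bp from the nearest protein-coding gene on the annotated long non-coding RNA AT3G04375. The next, chr4:5736838-5738798, had a score of 690.4 and lay on no annotated gene. The region chr3:5123787-5125366 (score 575.3) lay on AT3G00330, annotated as a miscellaneous RNA, and chr5:24903774-24905394 (score 539.0, called in leaf alone) lay on no annotated gene. None of these 4 regions overlapped an H3K4me3 region in leaf or in callus. The far H3K4me3 regions without H3ac were weaker: the strongest, chr4:17819205-17820741, had a score of 412.2, above 40.1% of leaf H3K4me3 regions. One of them, chr3:5861440-5862584 (score 306.1), lay on TAS3, whose transcript is cut into trans-acting small RNAs that target auxin response factors.

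At the level of genes, both marks were the rule. A gene was given a mark when a leaf region of it overlapped the TAIR10 gene body or 500 bp on either side. Of 27444 protein-coding genes, 17592 (64.1%) carried both marks, 370 (1.35%) H3ac only, 1731 (6.31%) H3K4me3 only and 7751 (28.2%) neither. H3K4me3 was thus also present at 97.9% of the 17962 genes with H3ac (65.4% of all genes), and H3ac at 91.0% of the 19323 genes with H3K4me3 (70.4% of all genes). At 17541 of the genes with both (99.7%) an H3ac region overlapped an H3K4me3 region, and at 51 the marks lay apart. The share with a single mark was highest among weakly marked genes. In the lowest decile of H3ac scores 11.9% of genes lacked H3K4me3, and in the lowest decile of H3K4me3 scores 49.1% lacked H3ac, while in the top deciles 0.89% and 1.4% lacked the other mark.

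Of the 10 named genes strongest in both marks, 4 are described here, and they stand for no gene group. The others were HCF243, TAF11, SLP2, HAE, INT4 and SAUR21. TIC, a nuclear protein that keeps the circadian clock running, had an H3ac score of 1425.2 (chr3:7912984-7915785) and the highest H3K4me3 score among leaf regions, 2523.9 (chr3:7912915-7916559). BRI1, the receptor for brassinosteroids, had scores of 1380.6 for H3ac (chr4:18324607-18328492) and 2118.6 for H3K4me3 (chr4:18324596-18327758). RGA1 and GAI are DELLA proteins, which hold back growth until gibberellin triggers their breakdown. RGA1 had the highest H3ac score among leaf regions, 2217.4 (chr2:255158-257840), and an H3K4me3 score of 1496.9 (chr2:255419-257624). GAI had scores of 1727.2 for H3ac (chr1:5149198-5151249) and 1439.2 for H3K4me3 (chr1:5149155-5151213) over nearly the same stretch, with widths of 2052 bp for H3ac and 2059 bp for H3K4me3. All 4 genes carried both marks in callus too, so their scores stand for both tissues.

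The strongest region counted for a single-mark gene was often centred outside the gene. Of the 10 named genes with H3ac only and the highest scores, 1 had its strongest region centred in its own body (SAP10), and likewise 1 of the 10 with H3K4me3 only. The H3ac region counted for BBX9 (score 1547.2) was centred outside the gene and overlapped an H3K4me3 region beyond its window. Likewise, the H3K4me3 regions counted for NF-YB6 (1325.8) and MSH4 (1324.8) were centred outside the gene and overlapped an H3ac region beyond its window. Over the whole classes, 53 of the 370 genes with H3ac only (14.3%) and 291 of the 1731 with H3K4me3 only (16.8%) had a region that overlapped the other mark beyond the window. A stricter set was formed, after these values had been seen, of genes with a region centred in the body and no marking region that overlaps a region of the other mark. It held 242 of the 370 genes with H3ac only (65.4%) and 1275 of the 1731 with H3K4me3 only (73.7%). Of these, 14 (5.79%) had an H3ac score above the median of genes with both marks, 336.5, and 19 (1.49%) an H3K4me3 score above the corresponding 540.3. The examples in the following paragraphs come from this stricter set unless stated, and those that are not members of a gene list were picked after their values had been seen.

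Examples of genes with H3ac only were picked from the stricter set, and they stand for no gene group. None of the listed 28 cold, drought and heat genes, 26 jasmonate genes, 27 salicylate and immunity genes and 21 ERF genes had H3ac only. Of 67 WRKY genes 1 (1.49%) had H3ac only, and of 16 senescence genes 1, against 1.35% of all genes. At that share, lists of this size would hold few such genes or none. The lists hold only genes matched by symbol or synonym, so other genes of these responses may have H3ac only. MYB15, a transcription factor of the cold and immune responses, had an H3ac region of score 967.5 next to its body (chr3:8306270-8308937) and a second one on its body, with no H3K4me3 region on either. MYB112 and ANAC087 are transcription factors of stress and senescence, with H3ac scores of 396.9 (chr1:17704762-17706581) and 388.5 (chr5:6041391-6043320). AOX1D, an alternative oxidase of mitochondria that is induced by stress, had an H3ac score of 335.7 (chr1:11667485-11668809). GSTU3, a glutathione transferase, had an H3ac score of 303.3 (chr2:12628196-12629477). SAP10, a zinc finger protein of the stress-associated family, had an H3ac score of 409.9 (chr4:12975654-12976667). In callus MYB112, ANAC087 and AOX1D carried both marks, while MYB15, GSTU3 and SAP10 carried H3ac only in both tissues. ESP, the specifier protein that turns glucosinolate breakdown toward nitriles, and ZAT11, a zinc finger factor of oxidative stress, had H3ac regions called in leaf alone, with scores of 219.8 (chr1:20171084-20171815) and 193.2 (chr2:15706372-15706973), and neither mark in callus.

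Examples of genes with H3K4me3 only were picked from the stricter set in the same way. NPQ4, the PsbS protein that sheds excess light energy at photosystem II, had an H3K4me3 score of 851.8 (chr1:16871579-16873145) and no H3ac region within its window. RBCS2B, a small subunit of Rubisco, had an H3K4me3 score of 626.5 (chr5:15380639-15382125), and AMT1;2, an ammonium transporter, one of 525.8 (chr1:24061158-24062599). These 3 regions were called in leaf alone, so their scores are leaf values. SUS1, a sucrose synthase, had an H3K4me3 score of 667.9 over 3618 bp (chr5:7051651-7055268), and MIPS1, which makes the precursor of inositol, one of 621.6 (chr4:18469871-18472104). SUS1 and MIPS1 carried both marks in callus, and the authors' deposited table lists SUS1 as 3.65-fold higher in callus for H3ac and 5.42-fold for H3K4me3. TBP1, a TATA-binding protein of the general transcription machinery, had an H3K4me3 score of 577.0 (chr3:4379724-4380882) and was the 1 of 27 genes of a housekeeping list without H3ac in leaf.

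**Figure D2:**
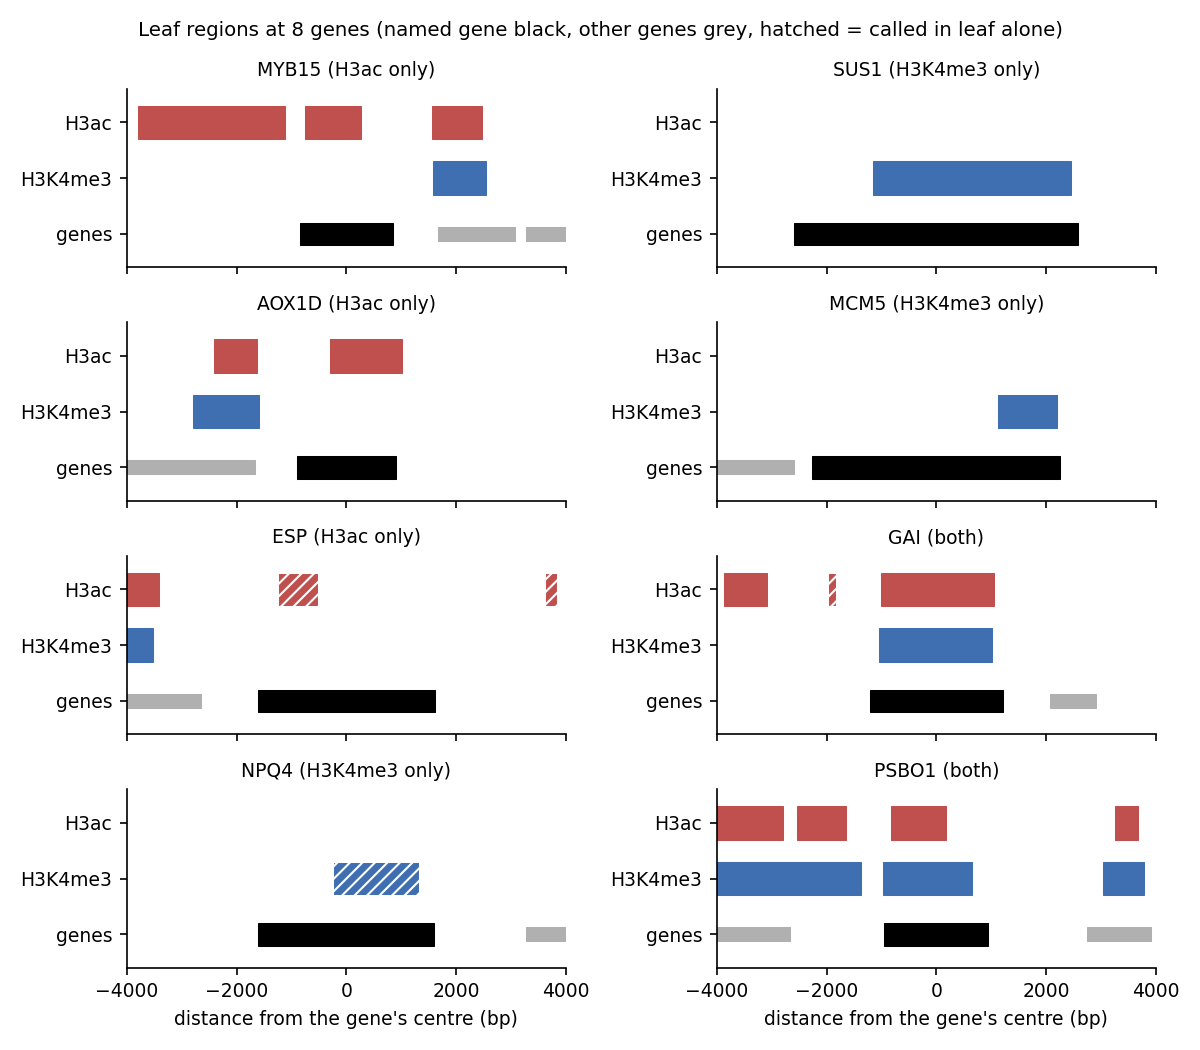
Leaf H3ac regions (top row, red) and H3K4me3 regions (middle row, blue) around 8 genes, by distance from the centre of the gene in bp on the forward strand, with the named gene in black, other protein-coding genes in grey, and hatching for regions called in leaf alone. MYB15, AOX1D and ESP have H3ac but no H3K4me3 on the gene, NPQ4, SUS1 and MCM5 have H3K4me3 but no H3ac, and GAI and PSBO1 have both.

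Gene groups were then read against the background of all protein-coding genes (64.1% with both marks, 1.35% H3ac only, 6.31% H3K4me3 only and 28.2% neither). Photosynthesis genes were marked throughout. Of 51 genes of the light reactions 43 carried both marks and 8 (15.7%) H3K4me3 only, and none lacked both. The 8 were NPQ4 and 7 genes of the light-harvesting complex of photosystem II: LHCB2.2 (H3K4me3 score 603.0), LHCB2.1 (466.5), LHB1B2 (412.1), CAB2 (374.6, the gene also called LHCB1.1), LHCB2.3 (366.9), CAB3 (285.6) and LHB1B1 (274.4). Several of these 7, and the small subunit genes of Rubisco, are near-identical copies among which reads cannot always be assigned. In callus, 6 of the 8 carried neither mark, LHCB2.1 carried H3K4me3 only and LHB1B2 both. Of 23 carbon fixation and photorespiration genes 22 carried both marks in leaf, the exception being RBCS2B, and of 25 chlorophyll synthesis genes 24 carried both, the exception being PORA, a protochlorophyllide reductase of dark-grown seedlings, with neither. All 28 light signalling genes carried both marks, as did 20 of 21 clock genes, where PRR9, a repressor of the morning genes, had H3K4me3 only (score 296.6).

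H3K4me3 without H3ac made up a larger share of the cell cycle list than of all genes. Of 77 cell cycle genes 22 (28.6%) had H3K4me3 only, 43 both, 1 H3ac only and 11 neither, and 21 of the 22 were in the stricter set. They included 4 subunits of the MCM helicase that unwinds replication origins, MCM2 (H3K4me3 score 195.9), MCM4 (208.1), MCM5 (150.7, chr2:3526368-3527445) and MCM6 (131.1). The origin recognition subunits ORC3 (191.4) and ORC6 (185.0), the helicase loader CDC6 (161.9) and CDC45 (175.9), which joins the loaded helicase, were among them. So were the mitotic regulators CYCB1;1 (138.2, chr4:17623279-17624321), CYCB2;3 (207.6), CDKB2;1 (105.7) and CDKB2;2 (222.8), and the kinase WEE1 (265.3), which delays division after DNA damage. In callus 21 of the 22 also had H3K4me3 only, and E2F3, a transcription factor of the entry into S phase, had both. The scored regions of the 22 had been called in both tissues, so their scores stand for leaf and callus together. The authors' deposited table lists H3K4me3 as higher in callus at CYCA1;1 (3.75-fold), MCM5 (2.5), ORC3 (2.25), ORC6 (2.23), CDKB2;1 (2.1) and MCM2 (2.02). It lists no H3K4me3 region at the rest of the 22. The H3K4me3 regions of these genes were weak, and weak H3K4me3 regions lacked H3ac more often at all genes. Within the lowest 2 deciles of H3K4me3 scores 19 of 26 cell cycle genes (73.1%) lacked H3ac, against 34.1% of all genes, and in the higher deciles 3 of 39 (7.69%), against 2.67%. When only regions above the median score of their mark were counted, 8 cell cycle genes had H3K4me3 only, while the light reaction genes with H3K4me3 only numbered 22.

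Other groups with H3K4me3 only above the background of 6.31% included genes of cell wall growth, histones and small RNAs. Of 65 expansin and xyloglucan endotransglucosylase genes, which loosen cell walls, 13 had H3K4me3 only, 3 H3ac only, 21 both and 28 neither. Among the 13 were EXPA15 (H3K4me3 score 373.8), EXPA4 (277.2) and XTH9 (354.7), and the 3 with H3ac only were XTH19 (H3ac score 217.4), XTH25 (97.1) and XTH29 (36.4). Of 16 genes with a SAUR symbol, small auxin-induced genes of cell expansion, 6 (37.5%) had H3K4me3 only. Of these 6, 5 carried neither mark in callus. The 16 include AT5G01830 under the symbol SAUR21, with both marks, which at 2865 bp may belong to another family. All 6 were in the lowest 2 deciles of H3K4me3 scores, and with regions above the median score none of the 16 had H3K4me3 only. Of 19 histone genes 5 (26.3%) had H3K4me3 only, among them HTA6 (H3K4me3 score 368.5) and HTB2 (250.9). Of 31 genes of small RNAs and DNA methylation 5 (16.1%) had H3K4me3 only and the other 26 both. The 5 were DCL2 (H3K4me3 score 247.6) and DCL3 (253.1), which dice double-stranded RNA, AGO9 (83.9), which binds small RNAs, and NRPD1A (385.0) and NRPD1B (339.7), the largest subunits of RNA polymerases IV and V.

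None of 43 listed ribosomal protein genes and none of 21 listed ERF genes, which encode ethylene response factors, had a single mark. Of all genes 1.35% had H3ac only and 6.31% H3K4me3 only. Of 184 genes drawn by symbol for embryo lethality or organelle RNA processing 171 carried both marks and 10 (5.43%) H3K4me3 only, 9 of the 10 in the lowest 2 deciles of H3K4me3 scores. Among 71 histone modifiers 4 (5.63%) had H3K4me3 only, near the 6.31% of all genes. Of these 4, 1 was ATX1, which itself methylates H3K4 (score 426.6, chr2:13461360-13462418). Of 20 root genes 3 had H3K4me3 only, SHR (H3K4me3 score 340.2), AIL6 (365.4) and the auxin carrier EIR1 (176.6), and all 3 carried both marks in callus. LFY, the switch to floral fate, had H3K4me3 only in leaf and in callus. The stronger of its 2 leaf regions (score 274.3) was centred outside its body.

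H3ac only was rare in all lists, and the peptide hormone list held the most such genes. Of its 117 genes 7 (5.98%, against 1.35% of all genes) had H3ac only, 9 H3K4me3 only, 29 both and 72 neither, and all 7 were in the stricter set. They were RALF1 (H3ac score 169.4), which slows root cell growth, EPF2 (138.0), which limits stomatal number, CLE14 (104.8), PROPEP1 (92.6), the precursor of an immune peptide, PSK2 (80.2), a phytosulfokine precursor, RTFL1 (39.2) and IDL2 (36.4). These scores lie below the median of leaf H3ac regions. The regions of RTFL1 and IDL2 had the minimum width of 151 bp, were called in leaf alone and stood at score percentiles 2.75 and 1.61. RALF1, CLE14, PSK2, RTFL1 and IDL2 are between 500 and 1000 bp long, a size at which 2.99% of all genes had H3ac only. Of 48 glutathione transferase genes 3 (6.25%) had H3ac only, GSTU3 (303.3), GSTF5 (152.6) and GSTU15 (150.5). Of 115 MYB genes 3 (2.61%) had H3ac only, MYB15, MYB112 and MYB21.

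**Figure D3:**
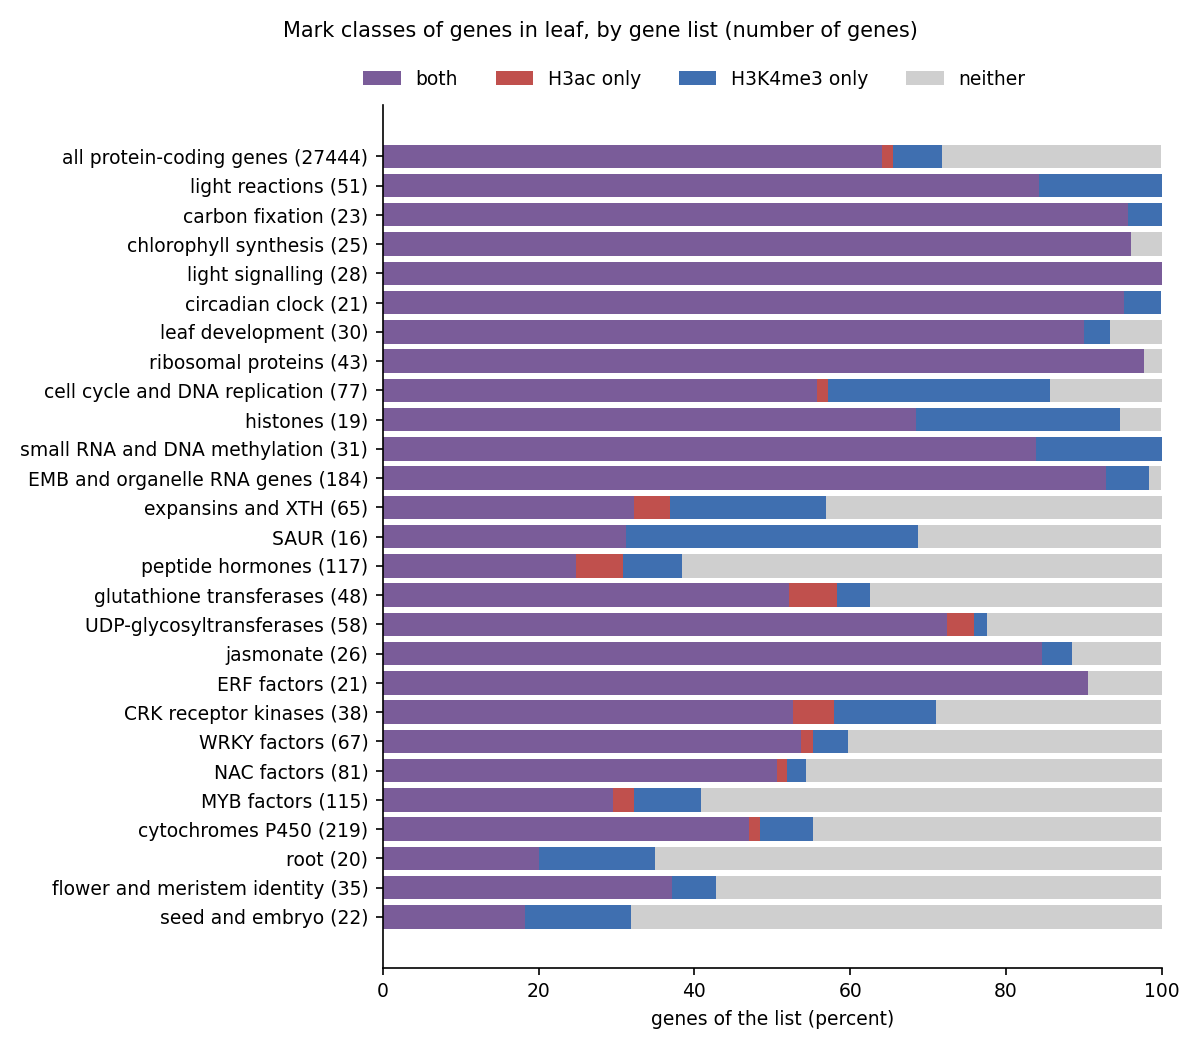
Share of each gene list (rows, with the number of genes) that carried both marks, H3ac only, H3K4me3 only or neither in leaf, as stacked bars from 0 to 100%, with all 27444 protein-coding genes for comparison. The H3K4me3 only share is 28.6% for cell cycle genes and 6.31% for all genes.

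At genes with both marks, the balance of the marks differed between gene groups. Each mark was ranked over the genes with a region of it centred in the body, 14924 for H3ac and 16002 for H3K4me3, as a percentile of the region score. The 13980 genes with both had median percentiles of 51.1 for H3ac and 54.6 for H3K4me3, with H3ac ranked higher at 43.3% of them, and the Spearman correlation of the scores over these genes was 0.59. This is a description across genes, with 1 library per mark and tissue. At 13213 of the 13980 genes the regions of both marks had been called in both tissues. Their scores and extents stand for leaf and callus together, so most ranks are not values of leaf alone. The gap between the medians of a list can exceed the median difference per gene, so the difference per gene, as H3ac minus H3K4me3 percentile, is given too (-3.1 for all genes). The single genes named in the paragraphs on ranks are list members unless stated, and were picked after their values had been seen.

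The lists of photosynthesis genes ranked higher in H3K4me3 than in H3ac. The 21 carbon fixation genes had median percentiles of 16.1 for H3ac and 75.6 for H3K4me3 and a median difference of -47.7, and H3ac ranked higher at none of them. RBCS1A, a small subunit of Rubisco, had an H3ac score of 153.0 at percentile 17.4 and an H3K4me3 score of 1286.7 at percentile 98.9. GLDP1, a glycine decarboxylase subunit of photorespiration, had scores of 116.2 for H3ac and 1025.4 for H3K4me3, at percentiles 10.6 and 95.7. Called in leaf alone were the H3K4me3 region of RBCS1A and the H3ac region of GLDP1. The other score of each gene stands for both tissues. CA2, a carbonic anhydrase, had scores of 91.0 for H3ac and 875.3 for H3K4me3, at percentiles 7.06 and 91.7. The 40 light reaction genes had median percentiles of 34.2 for H3ac and 69.5 for H3K4me3 and a median difference of -34.0, with H3ac higher at 7. LHCB5, a minor antenna protein, stood at percentiles 10.4 for H3ac and 91.2 for H3K4me3, and PSBO1, which stabilises the manganese cluster of photosystem II, at 24.3 and 83.7, on the regions centred in its body. PETE1, a plastocyanin, was an exception, at percentile 78.4 for H3ac and 46.7 for H3K4me3.

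The 23 chlorophyll synthesis genes had median percentiles of 34.3 for H3ac and 75.5 for H3K4me3 and a median difference of -18.5. PORB, the light-dependent protochlorophyllide reductase of green leaves, had the widest gap toward H3K4me3 among genes with a symbol, with an H3ac score of 44.8 at percentile 1.71 and an H3K4me3 score of 1394.4 at percentile 99.4. That gap rests on the H3ac region centred in the body. A second H3ac region in the window of PORB, centred outside the body, had a score of 436.5 (chr4:13727393-13728877) and lay on the same H3K4me3 region (chr4:13725493-13728916). GUN5, a subunit of magnesium chelatase, had scores of 95.2 for H3ac and 899.1 for H3K4me3. HEMA1, which starts the pathway, was high in both, at percentiles 91.7 for H3ac and 93.7 for H3K4me3. In the same direction lay the median differences of 26 leaf development genes (-8.9), 153 EMB and organelle RNA genes (-14.3), 33 cell cycle genes (-15.3), 20 small RNA and DNA methylation genes (-16.9) and 11 genes of a plastid ribosomal protein list (-23.1, with medians of 36.6 for H3ac and 67.0 for H3K4me3). Of those 20 small RNA genes H3ac ranked higher at 1, the DNA methyltransferase CMT3. The same direction held for 24 housekeeping genes (-15.4, with H3ac higher at 7) and 53 histone modifiers (-11.4). It also held for 12 nitrogen and sugar genes (-21.8) and 10 flower and meristem identity genes (-20.3). A lean toward H3K4me3 was thus not particular to photosynthesis genes.

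Several lists of defence genes and transcription factors ranked the other way, while the 20 genes of the cold, drought and heat list did not, with a median difference of -0.2 and H3ac higher at 10. The 21 jasmonate genes had median percentiles of 81.7 for H3ac and 54.6 for H3K4me3 and a median difference of 16.6, with H3ac higher at 17. JAZ proteins repress jasmonate responses and are themselves induced by the hormone. JAZ5 had an H3ac score of 1334.6 at percentile 99.6 and an H3K4me3 score of 348.1 at percentile 28.2, while a second H3K4me3 region in its window, centred outside the body, scored 639.8. JAZ7 had scores of 388.6 for H3ac and 99.9 for H3K4me3, at percentiles 67.6 and 5.1. MYC2, the transcription factor that the JAZ proteins bind, was near the top in both, with scores of 1813.8 for H3ac and 1141.9 for H3K4me3. The receptor subunit COI1 and the lipoxygenase LOX2 ranked higher in H3K4me3, with LOX2 at percentile 3.6 for H3ac and 58.8 for H3K4me3. Allene oxide synthase, AOS, was at 99.1 for H3ac and 96.9 for H3K4me3.

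The 17 ERF genes had median percentiles of 68.0 for H3ac and 37.9 for H3K4me3 and a median difference of 25.8, with H3ac higher at 14. ERF4, a repressor of ethylene and jasmonate responses, had an H3ac score of 1323.4 at percentile 99.5 and an H3K4me3 score of 411.4 at percentile 37.9. The 30 WRKY genes, transcription factors of immunity, had medians of 68.8 for H3ac and 47.9 for H3K4me3 and a median difference of 10.4, with WRKY48 at 98.3 and 37.6, and WRKY33 high in both at 93.6 and 94.7. The 17 genes of the CRK family of receptor-like kinases had medians of 47.8 for H3ac and 17.2 for H3K4me3 and a median difference of 10.6, with CRK11 at 94.8 and 42.2. The 21 genes of salicylate and immunity had medians of 80.4 for H3ac and 60.2 for H3K4me3 and a median difference of 7.0, with H3ac higher at 15. There NDR1, needed by several resistance proteins, stood at 90.9 for H3ac and 33.0 for H3K4me3, and NPR4, a salicylate receptor, at 55.2 and 88.7. The 36 genes of the ribosomal protein list, which was drawn by symbol and holds a few organellar ones, had medians of 71.2 for H3ac and 65.5 for H3K4me3, with H3ac higher at 18. For the 21 peptide hormone genes the medians, 23.6 for H3ac and 25.4 for H3K4me3, and the median difference per gene, 9.7 toward H3ac, pointed in opposite directions.

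Among all genes with a symbol, 4 of those with the widest gap toward H3ac were picked as examples after their values had been seen, and they stand for no gene group. TCH4, a xyloglucan endotransglucosylase named for its induction by touch, had an H3ac score of 836.2 at percentile 96.1 and an H3K4me3 score of 265.0 at percentile 18.7. RHL41, a zinc finger factor of light and cold stress also known as ZAT12, had scores of 574.2 for H3ac and 167.8 for H3K4me3. BAP1, an inhibitor of cell death, had scores of 647.2 for H3ac and 272.0 for H3K4me3, and PUB22, a ubiquitin ligase that dampens immune signalling, 470.5 and 138.1. Where the regions of both marks had been called in both tissues, the scores stand for leaf and callus together. There the median differences in percentile, H3ac minus H3K4me3, were -46.6 over 11 carbon fixation genes and -39.6 over 33 light reaction genes. Over all 13213 such genes the median difference was -3.0. The ranked regions of all 21 jasmonate and 17 ERF genes had been called in both tissues, so their 16.6 and 25.8 are the same values as above. The strongest region anywhere in the window was then used in place of the one centred in the body. The median differences were -43.5 over 22 carbon fixation genes and -27.2 over 43 light reaction genes. They were 14.8 over 22 jasmonate genes and 22.5 over 19 ERF genes, against -2.6 over 17592 genes.

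**Figure D4:**
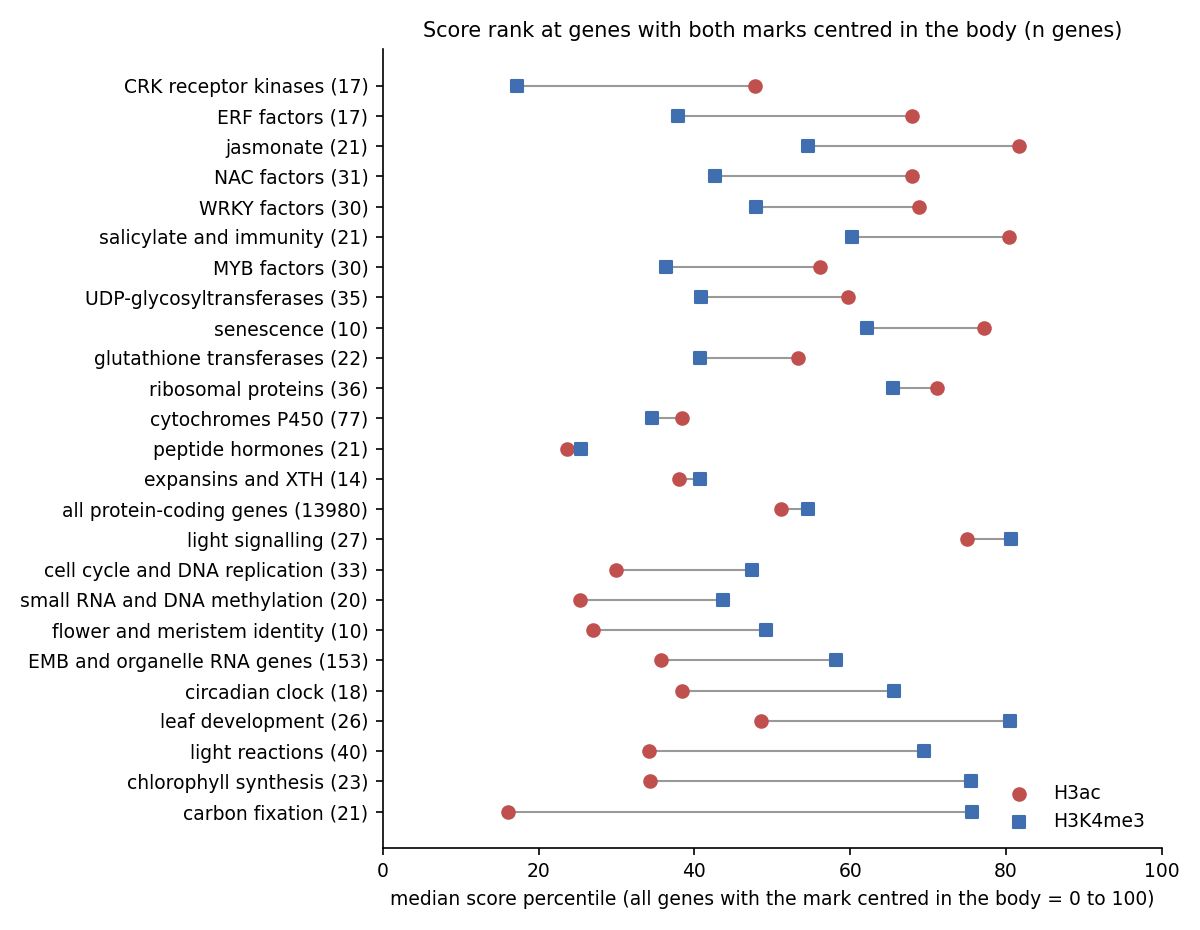
Median score percentile of H3ac (red circles) and H3K4me3 (blue squares) for gene lists at genes with a region of each mark centred in the body, with the number of genes in brackets, sorted by the gap between the medians. Lists such as jasmonate, ERF and CRK lie at the top with H3ac to the right, all protein-coding genes have medians of 51.1 and 54.6, and photosynthesis lists lie at the bottom with H3K4me3 to the right.

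The classes also differed in the genes' size and surroundings. Genes with both marks had a median length of 2398 bp, those with H3ac only 1441.5 bp, with H3K4me3 only 2061 bp and with neither 1345 bp. Of genes up to 500 bp long 23.8% carried both marks, and of those above 5000 bp 85.2%. The nearest other protein-coding gene lay a median of 100 bp away for genes with both marks, 521 bp for H3ac only, 262 bp for H3K4me3 only and 637 bp for neither. A longer or more crowded gene has more chances to overlap a region, and the windows of 82.6% of genes with both marks, 58.6% with H3ac only, 70.8% with H3K4me3 only and 52.7% with neither reached another gene. More than 1 annotated transcript was found for 46.8% of genes with both marks, 34.9% with H3ac only, 37.7% with H3K4me3 only and 21.7% with neither.

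Within genes the marks shared an end, with H3ac the closer to it. Of 5897 genes of at least 2000 bp with 1 region of each mark centred in the body, 5815 (98.6%) had both centres nearer the same end of the gene. The H3ac centre lay a median of 453 bp from the nearest gene end and the H3K4me3 centre 522 bp. At 4425 of these genes the H3ac centre was the closer to that end, by a median shift of 56 bp over all 5897. The strand of the genes was not known here, so the end was not identified as the start of transcription.

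Beyond protein-coding genes, small nucleolar RNA genes were the most often marked. To keep neighbouring genes apart, genes of each type were counted where no protein-coding gene lay within the window. Of 118 small nucleolar RNA genes, whose products guide the modification of ribosomal RNA, 96 (81.4%) carried both marks, 1 H3ac only and 6 H3K4me3 only. Of 161 microRNA genes 25 carried both and 8 H3K4me3 only. Of 1348 long non-coding RNA genes 81 carried both, 66 (4.9%) H3ac only and 30 (2.23%) H3K4me3 only. None of 170 tRNA genes, which RNA polymerase III transcribes, carried either mark, and of 3465 pseudogenes 49 carried both.

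Genes with a single mark in leaf were in another class in callus more often than genes with both. Of the 17592 genes with both marks in leaf 16967 (96.4%) carried both in callus. Of the 370 genes with H3ac only in leaf, 153 (41.4%) had H3ac only, 85 (23.0%) both, 14 H3K4me3 only and 118 (31.9%) neither in callus. Of the 1731 with H3K4me3 only in leaf, 939 (54.2%) had H3K4me3 only, 521 (30.1%) both, 14 H3ac only and 257 (14.8%) neither. Callus as a whole had 65.1% of genes with both marks, 1.79% H3ac only, 6.09% H3K4me3 only and 27.0% neither. The authors' deposited table lists regions at least 2-fold higher in callus. By it, 66 genes with H3ac only in leaf (17.8%) had a listed H3K4me3 region, against 5.87% of all genes, and 248 genes with H3K4me3 only in leaf (14.3%) had a listed H3ac region, against 4.86% of all genes. Each of these classes lacks that mark in leaf by its definition, so the shares are a description.

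**Figure D5:**
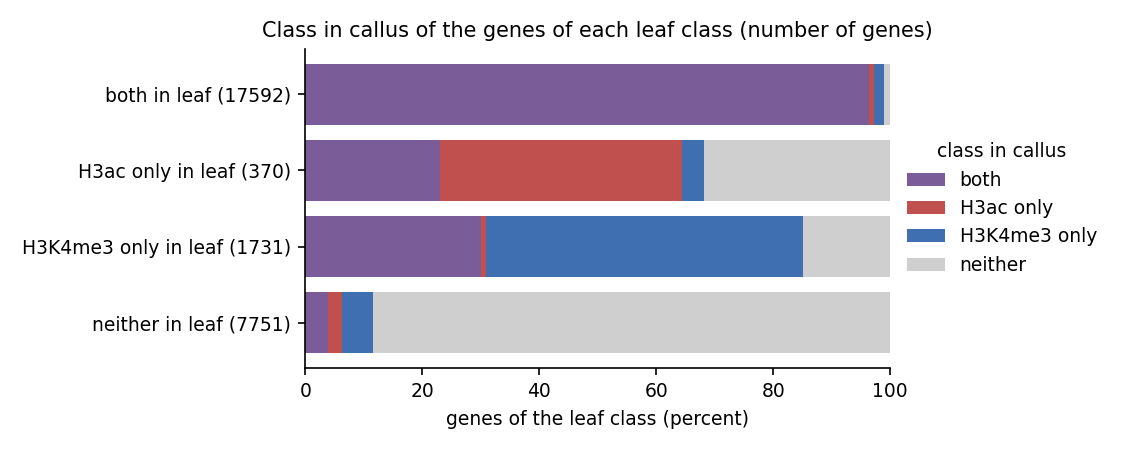
Marks in callus (stacked shares from 0 to 100%) of the genes in each leaf class, with the number of genes. The class with both marks has 96.4% of its genes with both in callus, against 23.0% for H3ac only and 30.1% for H3K4me3 only.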

How the data were processed

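The submitters' processing notes name the TAIR10 build and the tools HOMER 4.10.4, SAMtools 1.11 and Bowtie2 2.3.4.3, but neither their roles nor the region call settings. Per the file headers, leaf and callus regions were merged with HOMER mergePeaks, and each merged region has a score (no unit) that the authors deposited. Regions higher in callus were listed with HOMER's differential peak program at a fold cutoff of 2 and a Poisson p-value cutoff of 0.01 over 147 bp, per the file headers. The fold is the ratio the authors deposited, and no p-value is printed here. No input library was used here. Total read numbers are not part of the tables used here, so depth was read from the spacing of the scores.

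Here, nuclear regions naming the leaf library were intersected with each other (at least 1 bp) and with 27444 protein-coding genes of the RefSeq TAIR10.1 table, extended by 500 bp. That table has the coordinates of another assembly name: 89.7% of H3ac and 94.1% of H3K4me3 region centres fell in genes as given, and at most 67.7% and 67.2% after shifts of 1000 to 4000 bp. Gene coordinates are not printed. Python 3.11.15 with pandas 2.3.3 and numpy 2.4.6 was used, and the overlap code was tested on simulated intervals. Genes were named as the 10 highest-scoring with a symbol per class, up to 4 members per class of 42 gene lists, and cell type markers, and the other genes named, also within lists, were picked after their values were seen. From the lists, 36 genes with the symbol of another family were removed. Members and lists were chosen with earlier results of these data known. Shares of promoter motifs and base composition and distances from transcription starts were not computed, as no genome sequence or strand was used. Alternatives were other windows, overlaps, score and width thresholds, gene sets and regions called in leaf alone. One named gene with H3K4me3 only is not reported here.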

Additional observations from a re-analysis of the deposited data

Results flagged for a closer look

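On the plastid genome, which enters none of the comparisons, 80 leaf H3K4me3 regions were called, covering 41410 bp. For H3ac, 2 leaf regions covered 102708 bp of it. Plastid DNA carries no histones. No input library was used here, and the source of this signal was not tested. No region of either mark was called on the mitochondrial genome in leaf.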

How the results depend on the processing

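No paired analysis was possible because each mark and tissue has 1 library, and for the same reason no library could be left out. Of 75 values recomputed under alternatives, 45 stayed within the limits set for them and 30 moved, and the cause was not tested. For gene shares and list counts the limit was a 1.5-fold change. For overlap shares it was the 95% binomial interval of the main value. That interval is narrow and treats regions as independent, so the 2 limits allow changes of unlike size. With the region centre deciding the gene, 3.19% of genes had H3ac only. Among genes whose window reaches no other gene, 41.5% had both marks, 2.07% H3ac only and 49.6% neither. Above the median score of each mark, the shares were 32.4% both, 8.79% H3ac only, 9.84% H3K4me3 only and 49.0% neither. With regions called in leaf alone they were 1.29%, 4.44%, 2.32% and 91.9%. In the stricter set, added after seeing the data, 0.882% had H3ac only. Overlap with the other mark, over H3ac and over H3K4me3 regions, was 88.7% and 79.9% when 50% of the region had to be covered, 75.3% and 76.2% for 50% of both regions, 92.5% and 89.4% within 500 bp, 74.2% and 74.6% above the median score, and 50.3% and 51.0% for regions called in leaf alone. With equal numbers of regions 90.7% of H3ac regions overlapped. Above the median score, H3K4me3 only held 8 cell cycle, 22 light reaction, 5 expansin and XTH, 0 SAUR and 47 EMB and organelle RNA genes, and H3ac only 6 glutathione transferase genes.

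The split of gene lists by H3K4me3 score, the counts away from protein-coding genes and the score ranks over regions called in both tissues or in the whole window were also added after seeing the data. Windows of 0, 200 and 1000 bp, a minimum width of 300 bp and genes of any type moved no value past its 1.5-fold limit. Within that limit, genes of any type had 52.9% both and 39.8% neither. Weak regions limit the single-mark classes: a region of the shallower library that was not called cannot be told apart from a missing mark. The planned motif, base composition and start site comparisons were not run.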
